A study of Mus musculus with 36 samples.

Results

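The genes described here are the mouse cytochrome P450 genes of families 1 to 4. A gene was taken as a member when its symbol starts with Cyp1, Cyp2, Cyp3 or Cyp4 followed directly by a letter, and 4 symbols with the ending -ps were left out. The rule found 82 genes among the 24574 genes listed in all 3 tissues. One of them, Cyp4x1os, is a noncoding gene on the strand opposite Cyp4x1. Their levels were compared between the main olfactory epithelium (MOE), which detects volatile odorants, the vomeronasal organ (VNO), which detects pheromones and other social cues, and the olfactory bulb (OB), the brain region that receives their axons. C57BL/6 mice with no transgene or added agent were weaned at 3 weeks and then kept, 4 to a cage, until 6 months of age. The 4 groups are written with 2 letters, the first for the housing (S where a cage held 1 sex, sex-separated, and C where it held both, sex-combined) and the second for the sex (F or M): SF, SM, CF and CM. Each group had 3 RNA-seq libraries per tissue, 36 libraries in all, and each library was made from RNA pooled from 2 mice by the labels and from 3 mice by the study's methods. Because each library holds RNA of whole dissected tissue, fewer cells of a type and less RNA per cell cannot be told apart. By the study's methods, SF and SM cages were moved at weaning to rooms with mice of 1 sex only. Pups were born in sex-combined cages and removed soon after birth. A difference by housing therefore cannot be told apart from one of room or, in females, of mating and birth. A difference between SF and SM cannot be told apart from one of room.

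Cytochromes P450 are heme enzymes of the endoplasmic reticulum that insert an oxygen atom into lipophilic substrates, using electrons passed on by NADPH-cytochrome P450 reductase (Por). Members of families 1 to 3 act mainly on foreign chemicals and steroids, and those of family 4 mainly on fatty acids and eicosanoids such as leukotrienes. In the nose they are found above all in the supporting (sustentacular) cells and Bowman's glands, where they are known to modify inhaled chemicals and odorants.

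The libraries gave estimated totals of 3015430 to 5866060 fragments over the listed genes in MOE, 3372280 to 6430720 in VNO and 3250830 to 6007190 in OB. Marker genes followed the tissue labels: Cnga2, the cyclic nucleotide channel of olfactory neurons, lay between 131 and 259 FPKM in MOE, and Trpc2, the channel of vomeronasal neurons, between 33.3 and 50.4 FPKM in VNO. In OB a list of 7 bulb neuron genes summed to between 307 and 394 FPKM, against at most 7.12 FPKM in the other tissues. FPKM are fragments scaled to transcript length and to the mapped fragments of the library, so levels of different genes can be compared per length. The library MOE-CM3 stood apart, with a median log2 ratio of -0.65 to the median of the MOE libraries, over genes well detected in every MOE library. By the study's alignment statistics it also had the lowest share of concordant read pairs and the shortest inserts in MOE. The study's RNA integrity numbers of VNO pools were mostly lower in sex-combined than sex-separated mice, with overlap. The library MOE-SF2 had a ratio of -0.18 and the highest level of Obp1a, an odorant-binding protein of nasal glands. Without MOE-CM3, medians over all genes shifted in the comparisons that include CM, and counts of members without it are given with the MOE sex and housing results.

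The heme iron of a P450 is held by 1 cysteine in a short conserved stretch. Of the 80 members with a coding transcript, 77 held the coding pattern of this stretch, Phe-x-x-Gly-x-x-x-Cys-x-Gly, in 60 distinct DNA sequences. Only 1 transcript per gene, that with the longest coding sequence, was read. It lacked the exact pattern in Cyp2b10, Cyp2s1 and Cyp3a59, whose other transcripts were not searched. The 30 coding bases are shown for the members that lead in each tissue, because they show how alike or unlike the leading members are; the capitals mark the cysteine codon, and the sequences come from GENCODE M21 transcripts.
Cyp2a5: ttttccattggaaaacggtatTGTttcgga
Cyp2a4: ttttccattggaaaacggtatTGTttcgga
Cyp2g1: ttttcctctggaaagcgcatcTGCgttggg
Cyp2f2: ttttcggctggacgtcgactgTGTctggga
Cyp1a2: ttcggcttgggaaagcgccggTGCattggg
Cyp4b1: ttttctgcagggcccaggaatTGCattggg
Cyp2j6: ttctcaatgggaaagcgagctTGCctggga
Cyp2j9: ttctcaatgggaaaacgtgctTGTcttgga
Cyp4v3: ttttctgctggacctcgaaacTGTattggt
Cyp2a4 and Cyp2a5 were identical over this stretch. Relative to Cyp2a5, 11 of the 30 bases differed in Cyp2g1, 12 in Cyp2f2, 14 in Cyp1a2, 14 in Cyp4b1, 10 in Cyp2j6, 8 in Cyp2j9 and 12 in Cyp4v3.

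In MOE, the family was dominated by 3 genes of 1 cluster on chromosome 7. Cyp2a5, the coumarin 7-hydroxylase, was the highest member in every MOE library, with a lowest, median and highest value of 1427, 2345 and 2909 FPKM. Cyp2g1, a P450 known from olfactory mucosa, followed with 358, 570 and 614 FPKM. Cyp2f2, which activates naphthalene in airway cells, had 246, 354 and 404 FPKM. In each of these genes the lowest value was that of MOE-CM3, whose median ratio over genes was low. The other 10 members with a mean of at least 5 FPKM lay far below. Cyp4b1 (38.9 ± 6.64 FPKM, mean ± SD, n = 12), Cyp1a2, the caffeine demethylase (32.8 ± 5.11), and Cyp2j6 (31.9 ± 6.35) had overlapping ranges. Cyp4b1 was above Cyp1a2 in 10 and above Cyp2j6 in 9 of the 12 libraries. Cyp4v3, a fatty acid hydroxylase, had 21.3 ± 3.41, Cyp2a4, a steroid 15α-hydroxylase, 19.6 ± 11.9, and Cyp2e1, the ethanol-inducible P450, 16.4 ± 1.99 FPKM. Cyp3a13 had 13.9 ± 2.62, Cyp2b10 8.95 ± 1.58, Cyp4f15 6.96 ± 1.01 and Cyp1a1 5.58 ± 0.83 FPKM. Cyp2a5 alone was 62.8% to 70.9% of the summed FPKM of the 82 members, which lay between 2174 and 4144 FPKM per library.

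In VNO the order of the leading members was different. Cyp2f2 (86.9, 119 and 145 FPKM, lowest, median and highest) and Cyp2a5 (58.3, 93.8 and 141 FPKM) led, with ranges that overlapped widely. The next members were more than 10-fold lower: Cyp2j6 had 8.36 ± 0.85, Cyp4b1 7.95 ± 1.51, Cyp2g1 7.28 ± 2.99, Cyp4v3 4.02 ± 0.44, Cyp2j9 3.64 ± 0.38, Cyp2b10 2.90 ± 0.78, Cyp4f13 2.79 ± 0.26 and Cyp2s1 2.79 ± 0.38 FPKM (mean ± SD, n = 12). Cyp2g1 varied most among the 10, from 3.17 to 11.3 FPKM. The summed family level was 192 to 338 FPKM, less than that of any MOE library.

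In OB the nasal members were nearly absent and members of the Cyp2j and Cyp4 subfamilies led at low levels. Cyp2j9, a P450 known from brain, was highest with 8.51, 9.79 and 11.4 FPKM (lowest, median and highest), followed by Cyp2j6 with 4.77, 5.43 and 6.46 FPKM. The ranges of these genes did not overlap. Cyp4v3 had 2.97 ± 0.27, Cyp4f15 2.83 ± 0.36, Cyp2u1 2.51 ± 0.36, Cyp4x1 2.32 ± 0.42, Cyp4f14 1.79 ± 0.23, Cyp4f13 1.63 ± 0.27 and Cyp1b1 1.57 ± 0.23 FPKM (mean ± SD, n = 12). Cyp2d22, a brain P450, ranged from 1.55 to 2.47 FPKM, and neighbours in this order overlapped. The level of Cyp4x1 and of Cyp4x1os, the gene on the opposite strand, cannot be told apart fully, because whether the counting used strand is not given in the sources used here. Cyp2a5 lay between 0 and 0.83 FPKM in OB, and its 3 highest values were those of the libraries SF3, CM2 and CM3. The 2 highest Cyp2g1 values, 0.29 and 0.27 FPKM, came from SF3 and CM3 as well. The OB family sum was 33.4 to 42.5 FPKM.

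**Figure D1:**
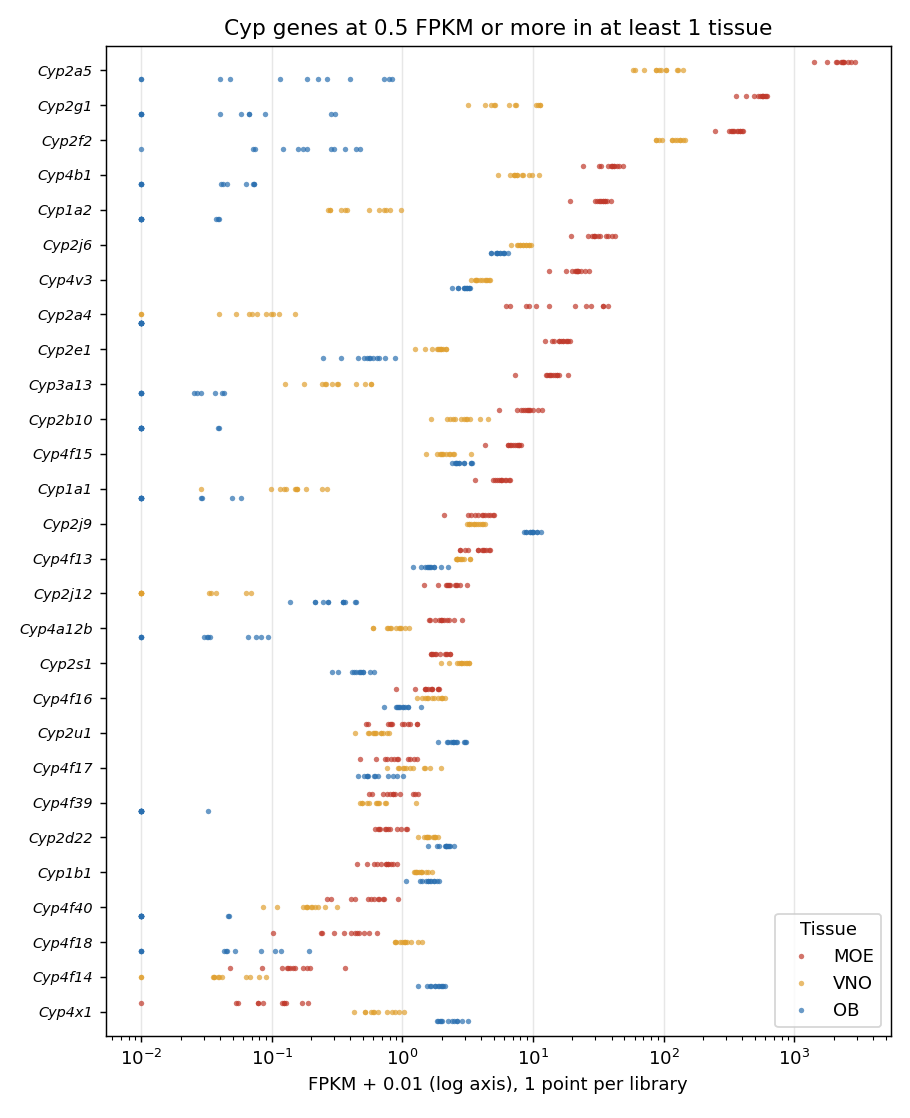
FPKM + 0.01 on a log axis of the 28 members with a mean of at least 0.5 FPKM in 1 or more tissues, ordered by MOE mean, with 1 point per library and 12 libraries per tissue. Cyp2a5 lies between 1427 and 2909 FPKM in MOE, between 58.3 and 141 in VNO and at 0.83 or less in OB, whereas Cyp2j9 is highest in OB.

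Of the 82 members, 28 reached a mean of 0.5 FPKM in at least 1 tissue, 25 of them in MOE, 22 in VNO and 13 in OB, and 11 did so in all 3 tissues. The other 54 members were low throughout. Among these, 10 were listed at 0 in all 36 libraries (Cyp2c29, Cyp2c54, Cyp2c67, Cyp2d12, Cyp2d40, Cyp3a41a, Cyp3a41b, Cyp3a44, Cyp4a30b and Cyp4a31). Another 17 had an estimated total above 0 but of about 3 fragments or fewer in all libraries together, and 27 had more. The highest single value in the low set was 0.87 FPKM, for Cyp4x1os. Cyp2r1, a vitamin D 25-hydroxylase, was detected at a like low level in all tissues, with means of 0.31, 0.46 and 0.42 FPKM in MOE, VNO and OB.

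The low set holds most of the P450 genes that are known for liver. None of the 14 members of the Cyp2c cluster on chromosome 19 reached a mean of 0.5 FPKM, and none of the 8 members of the Cyp3a cluster on chromosome 5 did so. Several mouse liver P450s are known to differ strongly between the sexes, and their levels here, picked after the values were seen, were low apart from Cyp2a4. Of those higher in female liver, Cyp2b9 had 3 fragments over all libraries and a highest value of 0.034 FPKM, Cyp2b13 a highest value of 0.33 FPKM, and Cyp3a41a, Cyp3a41b and Cyp3a44 were at 0. Of those higher in male liver, Cyp2d9 had 3 fragments in all, Cyp4a12a a highest value of 0.15 FPKM and Cyp4a12b one of 2.83 FPKM, in a male MOE library. Cyp4a12a and Cyp4a12b share many read-length stretches, so their separate levels are uncertain.

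The leading members sit together in the genome. The chromosome 7 cluster (mm9, chr7:26587494-27943583) holds 13 members of the Cyp2a, Cyp2b, Cyp2f, Cyp2g, Cyp2s and Cyp2t subfamilies, and its genes made up 94.4% of the mean family sum in MOE, 84.1% in VNO and 2.86% in OB. Within it, levels changed sharply between neighbours. Cyp2g1 (chr7:27593945-27606216) and Cyp2a5 (chr7:27620357-27628283) were the highest members in MOE, and Cyp2f2 lay at chr7:27904973-27918679, while Cyp2a22 and Cyp2a12 between them stayed below 0.1 FPKM in each library. Of the 13 genes, 6 reached a mean of 0.5 FPKM in MOE, 5 in VNO and none in OB. The Cyp2j cluster on chromosome 4, with 7 members, made up 1.13%, 4.50% and 41.6% of the family sum in MOE, VNO and OB, and the Cyp4f cluster on chromosome 17, with 8 members, summed to 14.8, 8.77 and 7.91 FPKM.

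**Figure D2:**
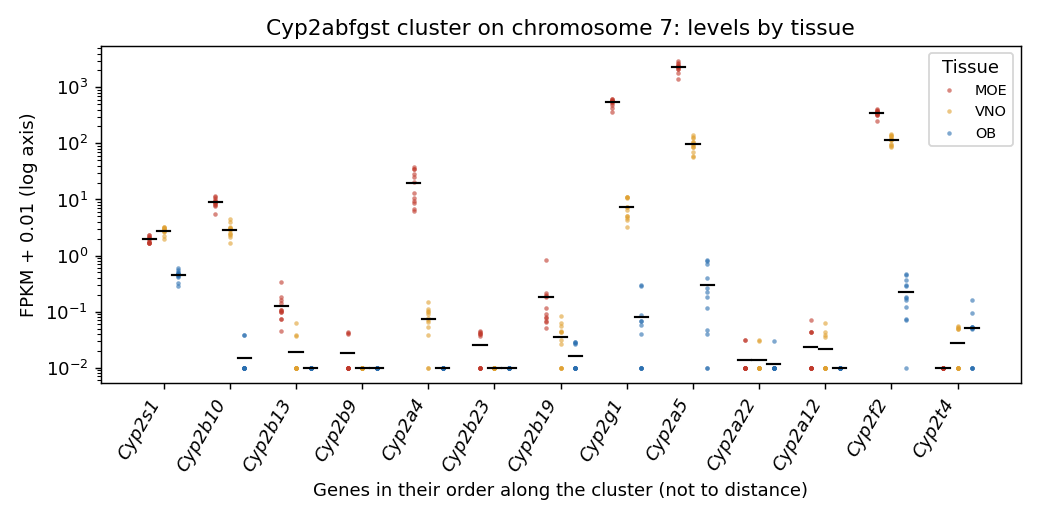
FPKM + 0.01 on a log axis of the 13 members of the chromosome 7 cluster, in their order along the chromosome and not to distance, with 1 point per library and a bar at the mean of the 12 libraries of each tissue. Cyp2g1, Cyp2a5 and Cyp2f2 stand above 200 FPKM in MOE, and the genes around them lie at least 10-fold lower.

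Cyp2a4 and Cyp2a5 are close copies. Their coding sequences, 1482 bases each, differed at 23 aligned positions, and 36.1% of the 50-base stretches of the Cyp2a4 transcript also occurred in Cyp2a5, so the split of reads between them is uncertain. In MOE, Cyp2a4 was 0.28% to 1.62% of the sum of both. It was the most variable of the leading members. Its values were 34.6, 10.6 and 13.1 FPKM in SF, 6.68, 20.9 and 25.5 in SM, 8.75, 27.9 and 34.3 in CF, and 9.22, 37.8 and 6.22 in CM. High and low libraries occurred in each group, and the groups overlapped. In VNO no library exceeded 0.14 FPKM. In OB Cyp2a4 was listed at 0 in all 12 libraries. Set against a floor of 3 fragments per library, 0.15 FPKM at most, its MOE mean was at least 128-fold higher than OB.

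The upstream sequences of the pair are shown because mean levels more than 100-fold apart in MOE go with nearly identical sequence over the 159 bases shown. Bases farther upstream were not compared. The stretches, from RefSeq on GRCm38.p6, both on the plus strand, end within 2 bases of the annotated starts of Cyp2a5 (chr7:26835179-26835337) and Cyp2a4 (chr7:26307033-26307191). Capitals mark the core site of nuclear factor I (NFI), TTGGCA, and the TATA box, TATAAA, each searched on both strands.
Cyp2a5: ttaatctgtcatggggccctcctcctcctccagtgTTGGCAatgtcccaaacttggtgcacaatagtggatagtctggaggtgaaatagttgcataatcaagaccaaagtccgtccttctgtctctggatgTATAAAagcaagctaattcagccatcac
Cyp2a4: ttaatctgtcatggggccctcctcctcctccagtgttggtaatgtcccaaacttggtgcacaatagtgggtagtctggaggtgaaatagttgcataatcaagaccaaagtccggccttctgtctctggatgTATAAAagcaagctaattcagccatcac
Over these 159 bases the sequences were 98.1% identical and differed at 3 positions, counted from 1 at the 5′ end as C40T, A70G and T114G, with the base of Cyp2a5 first. The first of these lies inside the NFI core site of Cyp2a5, which spans bases 36 to 41. A match is a description of letters and was not tested as a binding site.

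Across the family, 67 members had at least 1 RefSeq promoter window of 300 bases, from 250 before to 50 after a gene start, giving 74 windows. TATAAA occurred in 29 of them (39.2%), against 13.6% of all 32851 windows. TTGGCA occurred in 18 (24.3%, against 14.1%). GCGTG, the core of the response element of the aryl hydrocarbon receptor, occurred in 15 (20.3%, against 32.4%), and CCC and GGG with any 2 bases between them, a pattern of Ebf factors, in 5 (6.8%, against 13.7%). The full NFI palindrome, TTGGC and GCCAA with any 5 bases between them, occurred in 0 member windows and in 12 windows of all genes. All patterns were read on both strands, the windows of neighbouring members overlap or resemble each other, and the core and full NFI patterns overlap. Of the 12 windows of members with a mean of at least 5 FPKM in MOE, 5 held TTGGCA and 5 held TATAAA.

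Tissues were compared in 1 fit over all 36 libraries with limma on log2(FPKM + 0.5), and a gene was called at an adjusted p under 0.05 and a log2 difference of at least 1. By the study's methods the tissues were taken from the same mice, but the fit treated all libraries as independent. It tested 26 members among 14627 genes, kept by a mean of at least 0.5 FPKM over all 36 libraries. A gene high in 1 tissue alone could pass, as Cyp1a1 did with means of 5.58, 0.14 and 0.010 FPKM in MOE, VNO and OB. The counts and medians of this fit therefore depend in part on the filter. Between MOE and VNO, 14 members were higher in MOE, where 11.8% of all genes tested were called higher, and 0 were lower, where 9.73% of all genes were called lower. Their median log2 difference was 1.48, beside 0.15 over all genes. The largest differences belonged to Cyp2g1 (6.20, SE 0.14, adjusted p = 2.2e-26), Cyp1a2 (5.04, SE 0.09, adjusted p = 5.0e-29) and Cyp2a4 (4.90, SE 0.23, adjusted p = 8.4e-18). The Cyp2a4 value rests on the uncertain split of reads between Cyp2a4 and Cyp2a5. Cyp2a5 differed by 4.58 (SE 0.17, adjusted p = 1.6e-20) and Cyp3a13 by 4.11 (SE 0.09, adjusted p = 1.3e-26), while Cyp2f2 differed by only 1.59 (SE 0.11, adjusted p = 3.3e-14). Cyp2f2 fell below the required log2 difference under quantile normalization, at 0.98. As a share of the MOE mean, the VNO mean was 33.4% for Cyp2f2, 32.4% for Cyp2b10, 20.4% for Cyp4b1, 4.23% for Cyp2a5, 1.59% for Cyp1a2 and 1.35% for Cyp2g1. For Cnga2 this share was 1.02%. Sustentacular markers spread more widely, with 2.42% for Ermn, 3.71% for Ugt2a1, 47.7% for Cbr2, 68.8% for Krt18 and 93.9% for Krt8. Sult1c1 had means of 1.45 FPKM in MOE and 0.010 in VNO. Notch2 went the other way, with 6.0 FPKM in MOE and 10.7 in VNO.

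Between MOE and OB, 17 members were higher in MOE (21.1% of all genes were called higher) and 5 were lower (17.3% of all genes were called lower), with a median log2 difference of 2.04 over the 26 members and 0.07 over all genes. Cyp2a5 differed by 11.56 (SE 0.17, adjusted p = 2.2e-31), Cyp2g1 by 9.89 (SE 0.14, adjusted p = 3.1e-32) and Cyp2f2 by 8.96 (SE 0.11, adjusted p = 1.2e-33). The members called lower in MOE than in OB were Cyp4x1 (-2.25, SE 0.08, adjusted p = 8.1e-22), Cyp4f14 (-1.83, SE 0.06), Cyp2j9 (-1.23, SE 0.09), Cyp2u1 (-1.10, SE 0.07) and Cyp2d22 (-1.01, SE 0.06). Cyp2d22 sat at the limit and was not called without any 1 of 9 single libraries, with the smallest difference at -0.98.

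Between VNO and OB, 9 members were higher in VNO (20.2% of all genes were called higher) and 4 were lower (19.0% of all genes were called lower), with medians of 0.56 over the members and -0.12 over all genes. Cyp2f2 (7.37, SE 0.11, adjusted p = 1.4e-31) and Cyp2a5 (6.97, SE 0.17, adjusted p = 9.3e-26) differed most, and Cyp2j9, Cyp2u1, Cyp4f14 and Cyp4x1 were the members called lower. Cyp2s1 (1.79 higher in VNO than OB, SE 0.07) was 0.43 lower in MOE than VNO, with overlapping libraries. Cyp4f18, known for breaking down leukotriene B4 in neutrophils, was under the filter of the joint fit; its range was 0.87 to 1.41 FPKM in VNO, above every MOE and OB library. A list of 5 neutrophil genes did not follow this order as a whole. Its sum was 1068 to 1853 FPKM in VNO, 143 to 352 in MOE and 0.62 to 26.8 in OB, but that sum was mostly Ltf, lactoferrin, with means of 1424, 187 and 0.33 FPKM in VNO, MOE and OB. Of the other 4 genes, Ngp and Camp were called higher in MOE than VNO, S100a8 and S100a9 were not called, and none was at 0 in all libraries of a tissue. The part of neutrophils in the Cyp4f18 levels was not tested.

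Females and males were compared within each tissue, over 12 libraries in 4 groups, and a gene was called at an adjusted p under 0.05. No member was called in any tissue or comparison. In MOE, 25 members were tested among 13757 genes. For females against males, 0 of 25 were called as the mean of both housings (0.0727% of all genes), 0 under sex separation (0.102%), 0 under sex combination (0.0436%) and 0 for the interaction of sex and housing (0.0363%). At an unadjusted p under 0.05, limma gave 0 members in each of these 4 comparisons, beside 256, 572, 241 and 632 of all genes. Without MOE-CM3 it gave 1, 4, 1 and 4 members, with 0 called. In Cyp2a5 the values were 2909, 2336 and 2569 FPKM in SF, 2354, 2392 and 2107 in SM, 1779, 2296 and 2078 in CF, and 2364, 2737 and 1427 in CM. The ranges of the 4 groups overlapped, apart from SF lying above CF. The female minus male log2 difference of Cyp2a5 was 0.07 (95% confidence interval -0.38 to 0.53), that of Cyp2g1 0.01 (-0.40 to 0.41) and that of Cyp2f2 0.04 (-0.33 to 0.40). For 24 of the 25 members the interval lay within 1 log2 unit of 0. The exception was Cyp2a4, with 0.38 (-0.55 to 1.31), whose interval takes in a 2-fold higher level in females. The smallest p values belonged to Cyp4a12b and Cyp3a13 (mean of both housings), Cyp2u1 and Cyp1a1 (SF against SM), Cyp2j12 and Cyp4f17 (CF against CM), and Cyp1a1 and Cyp2u1 (interaction), all at an adjusted p of 1.0.

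**Figure D3:**
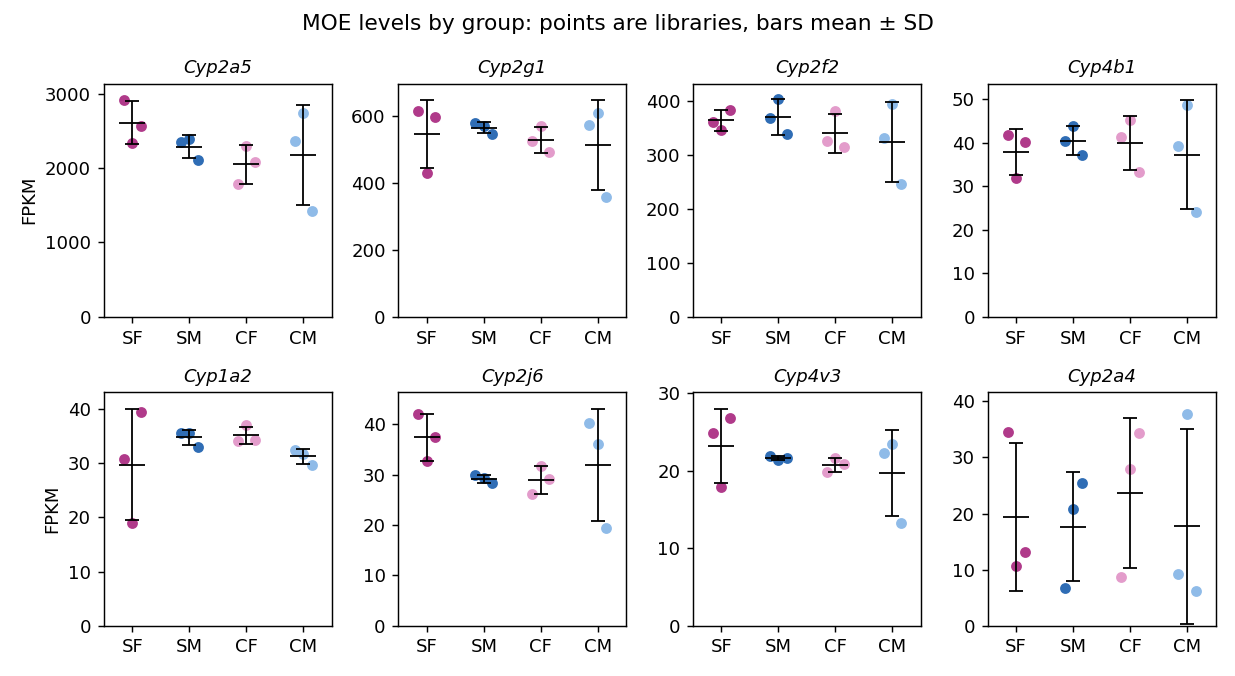
FPKM of 8 leading members in the MOE by group (SF, SM, CF, CM), with 1 point per library and the mean ± SD of 3 libraries. The groups overlap in Cyp2g1, Cyp2f2 and Cyp4b1, and Cyp2a4 runs from 6.22 to 37.8 FPKM with high and low libraries in each group.

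Housing gave no member call in MOE either. For sex-separated against sex-combined mice, 0 of 25 members were called over both sexes (0.102% of all genes), 0 in females (0.0509%) and 0 in males (0.0654%). At an unadjusted p under 0.05, limma gave 0, 0 and 1 members, beside 455, 280 and 955 of all genes. The 1 was Cyp2u1 in males (0.46, 95% confidence interval 0.05 to 0.87, limma adjusted p = 0.70). Beside it, the smallest p values were those of Cyp2u1 (0.26, 95% confidence interval -0.03 to 0.55) and Cyp2b10 (0.24, -0.06 to 0.54) over both sexes, Cyp2b10 (0.36, -0.06 to 0.78) and Cyp1a1 (-0.28, -0.67 to 0.11) in females, and Cyp4f13 (0.30, -0.12 to 0.72) in males. Without MOE-CM3 the difference of Cyp2u1 in males was 0.31. Of the 25 members, 24 had higher values in SM than CM, with a median of 0.17, and the median of all genes was also 0.17; without MOE-CM3 the counts were 12 higher and 13 lower, and under upper quartile scaling 10 higher and 15 lower. Without MOE-CM3 no member was called by sex or housing in MOE. Cyp2j6 was 42.1, 32.7 and 37.4 FPKM in SF, 29.9, 29.3 and 28.4 in SM, 26.1, 31.7 and 29.2 in CF, and 40.3, 36.1 and 19.4 in CM. The SF libraries lay above all SM and CF libraries. Its interaction of sex and housing was 0.42 on the log2 scale (95% confidence interval -0.29 to 1.13, limma adjusted p = 1.0), and 0.83 with an adjusted p of 0.049 when MOE-CM3 and MOE-SF2 were both left out, a setting chosen after the data were seen, in which 2.02% of all genes were called.

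In VNO, 22 members were tested among 13849 genes and none were called between females and males: 0 as the mean of both housings (0.123% of all genes), 0 under sex separation (0.0722%), 0 under sex combination (0.0433%) and 0 for the interaction (0% of all genes, 0 genes). At an unadjusted p under 0.05, limma gave 2, 3, 0 and 2 members, beside 931, 1219, 545 and 728 of all genes. For housing, 0 members were called over both sexes, 0 in females and 0 in males, and 0 of all genes were called in each (0%). At an unadjusted p under 0.05, limma gave 1 member in each, beside 1048, 1520 and 322 of all genes. The smallest unadjusted p values belonged to Cyp1a2 and Cyp2g1 between SF and SM. Cyp2g1 was 5.11, 3.17 and 5.04 FPKM in SF, 11.0, 11.2 and 7.20 in SM, 11.3, 7.36 and 4.26 in CF, and 4.74, 10.5 and 6.53 in CM. All 3 SF libraries lay below all 3 SM libraries, and the CF and CM libraries overlapped. The SF minus SM log2 difference of Cyp2g1 was -1.06 (95% confidence interval -1.79 to -0.33, limma adjusted p = 0.47), and its interaction of sex and housing was -1.10 (-2.13 to -0.07, adjusted p = 0.89). Cyp1a2 was 0.37, 0.27 and 0.27 FPKM in SF and 0.96, 0.74 and 0.65 FPKM in SM, a log2 difference of -0.67 (-1.12 to -0.22, adjusted p = 0.46), and -0.39 between females and males over both housings (adjusted p = 0.58). These levels rested on 9 to 31.9 fragments per VNO library. Cyp4f17 (-0.42 between SF and SM, -0.43 between SF and CF and -0.64 for the interaction), Cyp2b10 (-0.37, females against males), Cyp4x1 (-0.27, sex-separated against sex-combined) and Cyp4f13 (-0.21, SM against CM) also had an unadjusted p under 0.05, with adjusted p values of 0.44 to 1.0 by limma. Between CF and CM the smallest p values were those of Cyp2b10 (-0.42, 95% confidence interval -0.89 to 0.04) and Cyp2f2 (-0.31, -0.75 to 0.13).

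The VNO values of Cyp2g1 and Cyp1a2 moved with those of a marker of the main epithelium. Cnga2 was 1.33, 0.88 and 1.31 FPKM in the SF libraries, 3.72, 3.31 and 2.80 in SM, 3.30, 2.15 and 1.33 in CF, and 0.94, 3.01 and 2.04 in CM. SF was low and SM was high, as for Cyp2g1. Over the 12 VNO libraries, on log2(FPKM + 0.5), Cyp2g1 and Cnga2 had a Pearson r of 0.96 (permutation p = 1e-05, the smallest the 100000 resamples can give, adjusted p = 0.00022 over 22 members) and a Spearman rho of 0.92 (permutation p = 4e-05, adjusted p = 0.00088). Without the 2 libraries farthest from the Cnga2 median r was 0.96, and within sex-separated and sex-combined libraries it was 0.97 and 0.95. For Cyp1a2, r was 0.84 (permutation p = 0.0020, adjusted p = 0.022) and rho 0.79 (permutation p = 0.0035, adjusted p = 0.039), with r = 0.82 without the 2 farthest libraries and 0.97 and 0.64 within the housings. The other 20 members did not pass an adjusted p of 0.05, and 16 of all 22 had an r above 0. Cyp4v3 (r = 0.70, permutation adjusted p = 0.0997), Cyp2j9 (r = 0.62) and Cyp2e1 (r = 0.59) came next. Cyp2a5 had r = 0.22 and rho = 0.20, and r = 0.63 without the 2 farthest libraries, and Cyp2f2 had r = 0.17 and rho = 0.22, and r = 0.36 without them. The comparison was chosen after the values had been seen. Only members were compared with Cnga2, so how common such an r is among all genes was not tested. The list of 7 olfactory neuron genes that holds Cnga2 summed to 98.3 to 151 FPKM in VNO and 1202 to 2043 FPKM in MOE, and none of its genes was at 0 in all libraries of a tissue. Most of the VNO sum was Omp, with 80.6 to 116 FPKM. The VNO mean of Omp was 10.3% of its MOE mean, against 1.02% for Cnga2. The part of the listed genes in the Cyp2g1 and Cyp1a2 differences was not tested.

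**Figure D4:**
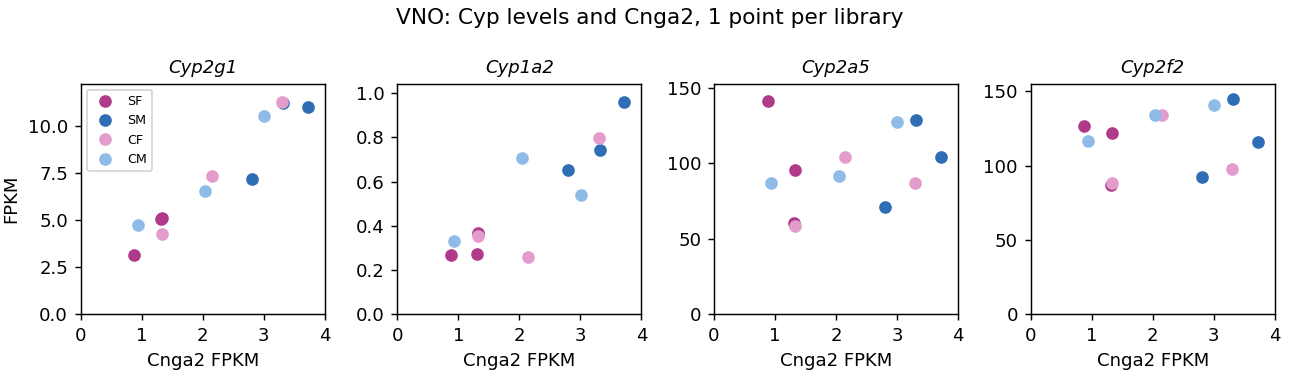
FPKM of Cyp2g1, Cyp1a2, Cyp2a5 and Cyp2f2 (vertical axes) against Cnga2 FPKM (horizontal axes) in the 12 VNO libraries, coloured by group (SF, SM, CF, CM). Cyp2g1 rises with Cnga2 from 3.17 to 11.3 FPKM (r = 0.96 on the log2 scale), and Cyp2a5 and Cyp2f2 spread without a like order.

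In OB, 13 members were tested among 12795 genes and none were called. Between females and males the counts were 0 as the mean of both housings (0.0625% of all genes), 0 under sex separation (0.0391%), 0 under sex combination (0.0469%) and 0 for the interaction (0.00782%). At an unadjusted p under 0.05, limma gave 1, 2, 0 and 0 members, beside 833, 587, 728 and 528 of all genes. For housing the called counts were 0 over both sexes (0.00782%), 0 in females (0.00782%) and 0 in males (0%, 0 genes). At an unadjusted p under 0.05 there were 1, 0 and 1 members by limma, beside 291, 358 and 435 of all genes. Cyp2j9 was even across the groups, with means of 9.76 ± 1.16 FPKM in SF, 9.38 ± 0.50 in SM, 9.83 ± 0.94 in CF and 10.2 ± 1.04 in CM (SD, n = 3), and a female minus male log2 difference of 0.00 (95% confidence interval -0.17 to 0.16). Cyp4f17 was 0.52, 0.45 and 0.64 FPKM in SF and 0.76, 0.84 and 0.99 FPKM in SM, without overlap. Its log2 difference between SF and SM was -0.39 (-0.70 to -0.09, limma adjusted p = 1.0), and -0.28 between females and males over both housings (adjusted p = 0.74). Cyp4f15 (-0.24 between SF and SM, 0.25 between SM and CM) and Cyp2e1 (-0.26 between sex-separated and sex-combined mice) were the other members with an unadjusted p under 0.05, also at an adjusted p of 1.0. Among the smallest p values of the other comparisons were those of Cyp1b1 (interaction -0.39, 95% confidence interval -0.78 to 0.01) and Cyp4f16 (SM against CM -0.26, -0.53 to 0.01). All 13 members had intervals within 1 log2 unit of 0 in all 7 comparisons.

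**Figure D5:**
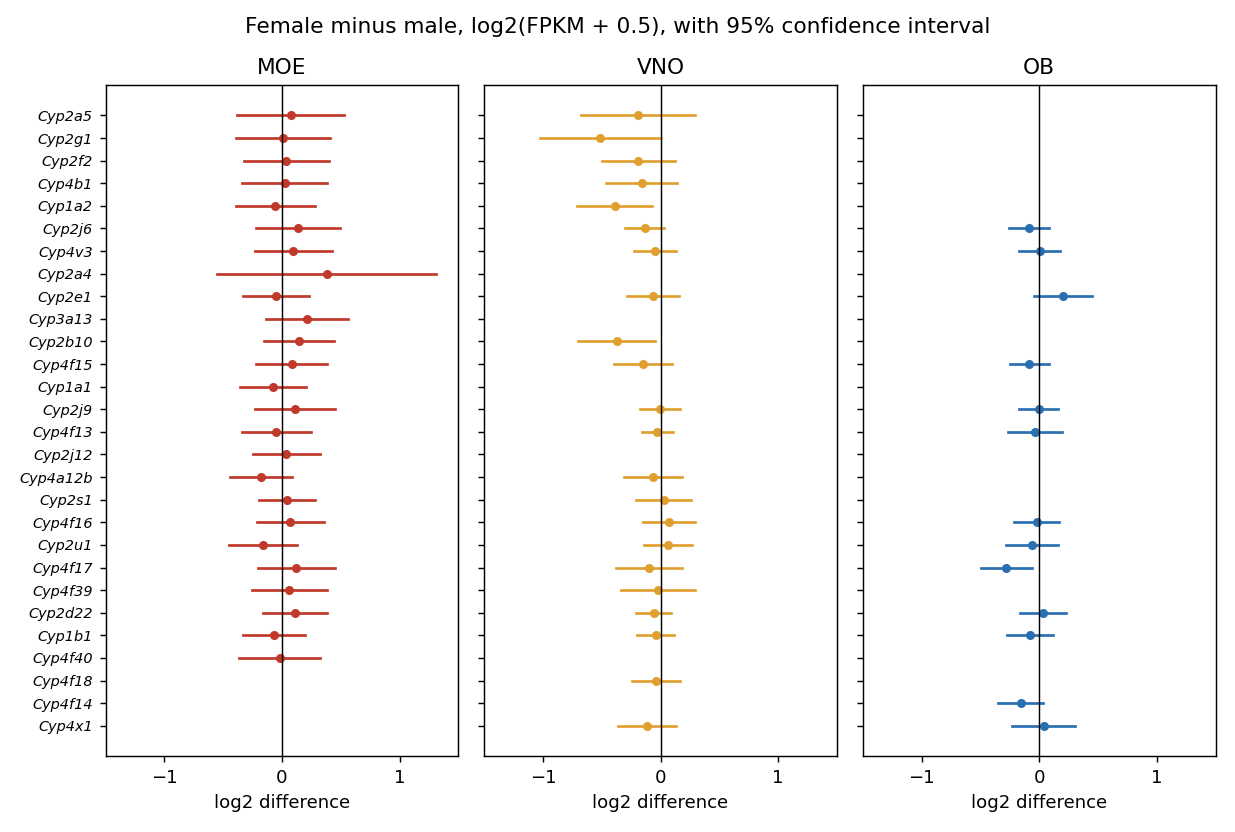
Female minus male log2 difference of log2(FPKM + 0.5), as the mean of both housings, with its 95% confidence interval, for each member tested in MOE, VNO and OB. Most intervals cross 0, no member was called, and the widest interval is that of Cyp2a4 in MOE, from -0.55 to 1.31.

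Whether the female minus male difference of a member itself differed between tissues was tested in the joint fit. No member of 26 was called for MOE against VNO (0.0137% of all genes), for MOE against OB (0%, 0 genes) or for VNO against OB (0.0137%). By limma, 2, 1 and 1 members had an unadjusted p under 0.05, beside 557, 487 and 406 of all genes.

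The enzymes that work with P450s were read from lists of the pathway. Of 9 genes for electron transfer and heme handling, all tested, 4 were called higher in MOE than VNO, 7 higher in MOE than OB and 4 higher in VNO than OB, and 0 lower. Over all genes tested, 11.8% were called higher and 9.73% lower in MOE than VNO. Against OB, 21.1% and 17.3% were called for MOE, and 20.2% and 19.0% for VNO. Cyb5a, cytochrome b5, had 336 ± 55.4, 75.3 ± 8.32 and 21.1 ± 2.13 FPKM in MOE, VNO and OB (mean ± SD, n = 12). Pgrmc1, a heme-binding partner, had 213 ± 30.9, 49.2 ± 4.62 and 72.4 ± 6.83 FPKM. Por, the reductase, had 61.3 ± 9.99, 44.9 ± 2.93 and 10.9 ± 1.23 FPKM, and its log2 difference of 0.43 between MOE and VNO (SE 0.07) was under the size required for a call.

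Of 29 other phase I genes, 25 were tested, and 15 were called higher in MOE than VNO and 0 lower, 21 higher and 1 lower than OB, and 19 higher and 1 lower in VNO than OB. The highest were Cbr2, a carbonyl reductase, with 814 ± 136 FPKM in MOE and 388 ± 34.2 in VNO, Pon1, a paraoxonase, with 210 ± 39.3 and 7.42 ± 1.77, and Ces1d, a carboxylesterase, with 191 ± 26.9 and 34.7 ± 6.13. Of 40 conjugating (phase II) genes, 32 were tested, and 16 were called higher in MOE than VNO and 2 lower, 17 and 2 against OB, and 15 and 6 for VNO against OB. For the phase I and phase II lists, the shares of all genes called were those given above. Ugt2a1, an odorant glucuronosyltransferase, led with 1264 ± 244 FPKM in MOE and 46.9 ± 15.5 in VNO, followed by Mgst1 (215 ± 35.0 and 38.4 ± 3.58) and Sult1d1 (139 ± 26.0 and 11.7 ± 1.84). A list of 7 sustentacular markers, which shares Cbr2, Sult1c1 and Ugt2a1 with these lists, summed to 1427 to 2888 FPKM in MOE, 519 to 663 in VNO and 7.64 to 11.9 in OB, where Sult1c1 was at 0 in all libraries. Its genes differed in direction. Of the 6 tested, Ermn, Cbr2 and Ugt2a1 were called higher in MOE than VNO, Krt8, Krt18 and Notch2 were not called, and Ermn was called lower in VNO than OB. The part of sustentacular cells in the tissue differences of the P450 genes was not tested.

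Regulators of P450 genes were read from a further list. Of 19 nuclear receptors and related factors, 14 were tested, and 1 was called higher and 1 lower in MOE than VNO, where 11.8% and 9.73% of all genes were. Against OB the counts were 5 and 1 for MOE (21.1% and 17.3% of all genes), and 8 and 2 for VNO (20.2% and 19.0%). The highest in MOE were Nfe2l2 (32.8 ± 4.59 FPKM), Cebpb (15.1 ± 2.49) and Nfib, an NFI gene (10.9 ± 1.34). Nfib was 10.7 ± 0.56 FPKM in VNO, a log2 difference of 0.03 between MOE and VNO (SE 0.07). Nr1i3, the receptor known to induce Cyp2b10 in liver, was listed at 0 in all libraries. Of 20 P450 genes of other families, 9 were tested, and 1 was called higher and 2 lower in MOE than VNO, 3 and 1 against OB, and 3 and 1 for VNO against OB. These counts stand beside the same shares of all genes. Cyp27a1, a sterol 27-hydroxylase, had 11.7 ± 1.99, 2.21 ± 0.31 and 3.61 ± 0.43 FPKM in MOE, VNO and OB. Cyp20a1 (8.70 ± 1.35, 8.62 ± 0.60 and 4.24 ± 0.55) and Cyp51, the lanosterol demethylase (8.42 ± 1.37, 8.70 ± 0.74 and 10.2 ± 0.85), were more even.

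Sex and housing gave 4 called genes among these lists. Of 31 phase II genes tested in MOE, 2 were called by housing over both sexes, where 0.102% of all genes were. Gstp1, a glutathione transferase, was called higher in sex-separated than sex-combined MOE (1.09 on the log2 scale, SE 0.15, limma adjusted p = 0.0030) and Gstp2 lower (-1.54, SE 0.23, adjusted p = 0.0061). The values of Gstp1 were 11.4, 9.15 and 10.3 FPKM in SF, 12.3, 11.7 and 8.95 in SM, 5.40, 5.72 and 3.65 in CF, and 6.06, 3.87 and 3.99 in CM. The housings did not overlap. Within a sex, Gstp2 was called lower in SF than CF (-1.89, limma adjusted p = 0.049) and Gstp1 higher in SM than CM (1.17, adjusted p = 0.049). These genes are close copies, so reads may be split between them differently, which was not tested. Aldh1a2, a retinal dehydrogenase, was higher in female than male VNO by limma (0.43, SE 0.06, adjusted p = 0.013), with 3.24 to 3.87 FPKM in female and 2.19 to 2.90 FPKM in male libraries. Cebpb was lower in female than male OB (-0.62, SE 0.09, limma adjusted p = 0.032), with 1.71 to 2.61 and 2.99 to 4.07 FPKM. No gene of the electron transfer and heme list or of the other P450 families was called in a sex or housing comparison.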

How the data were processed

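Total RNA, depleted of ribosomal RNA, was sequenced as pairs of 50 bases. The authors aligned reads with TopHat2 2.1.0 and computed FPKM with Cufflinks 2.2.1.0 (versions from the submitters' processing notes), and the deposited values are FPKM per RefSeq transcript on mm9, with confidence limits. FPKM of transcripts were summed by gene symbol (99.7% of transcript loci matched a symbol). Fragment numbers were derived from each FPKM and its limits, read as 2 standard errors on each side. These numbers are estimates, and some lay under 1 where the FPKM was above 0, such as 0.49 for Cyp3a25 in VNO-CF1. They do not account for copies made by PCR, which were not marked.

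limma 3.58.1 in R 4.3.3 (lmFit, contrasts.fit, eBayes with a trend) was applied to log2(FPKM + 0.5), keeping genes whose FPKM averaged 0.5 or more across a fit's libraries, in 1 fit per tissue and 1 over all 36 libraries. Groups came from the sample titles. Benjamini-Hochberg adjustment covered every gene tested in a fit. Differences on this scale understate changes of low genes. The design was tested on simulated data: of 200 genes changed by 1 log2 unit, 69.0% were recovered between SF and SM and 7.50% for the interaction. Of the calls, 5.48% and 11.8% were false. The simulation drew independent noise for each gene from the MOE spread. It held no shift of a whole library, as in MOE-CM3, and changed no genes of low level. Correlations used Python 3.11.15 and scipy 1.17.1.

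Members and gene lists were chosen with earlier results of these data known. Named were the 10 highest members of each tissue, the 2 with the smallest p in each sex and housing comparison, and of each enzyme list the 3 highest genes in MOE and any called by sex or housing; others named were chosen after their values were seen. Alternatives were other pseudocounts (0.1 and 1), no filter, quantile and upper quartile scaling, library weights, a replicate block, only the groups compared, and each library left out. By the study's methods, CF and CM mice shared cages and the tissues came from the same mice. Which pools shared a cage or mice is not given. The main fits treated libraries as independent, so CF and CM pools, and libraries of different tissues, may be less independent than assumed. The p-values measure the spread between these pools. Between libraries with the same replicate number, correlations of deviations from group means exceeded 0.1 in 13 of 54 pairs within a tissue and 5 of 36 between tissues. All 3 pairs did so for SF with SM (0.123 to 0.204) and SF with CF (0.106 to 0.277) in VNO, 2 of the 18 pairs of groups, so the numbers were taken to pair libraries there only.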

Additional observations from a re-analysis of the deposited data

How the results depend on the processing

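The count of 0 members called by sex or housing held in all 3 tissues under both other pseudocounts, no filter, quantile and upper quartile scaling, the replicate block and only the groups compared, and for each library left out (range 0 to 0). Library weights moved it, of 25 members in MOE, to 3 for SF minus SM, 6 for SF minus CF and 4 for the interaction, where 13.2%, 16.2% and 17.6% of all genes were called. Of 13 members in OB they moved it to 1 for female minus male, 2 for SF minus SM and 4 for SM minus CM, where 14.6%, 11.0% and 24.6% of all genes were called. These weights ran from 0.05 (MOE-CM3) to 5.64 (MOE-SF1) in MOE and reached 6.20 (OB-SM3) in OB. With MOE-CM3 and MOE-SF2 both left out, a setting chosen after the data were seen, the MOE interaction gave 1 member, Cyp2j6 (2.02% of all genes), and the other counts by sex and housing were 0. The cause was not tested.

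The tissue counts stayed within 1.5 times of the reported value under each alternative. With 1 library left out they ranged from 14 to 15 for MOE against VNO, 20 to 23 for MOE against OB and 12 to 14 for VNO against OB. Pseudocounts of 0.1 and 1 gave 17 and 9 for the last of these. Relative to the unscaled values, upper quartile scaling moved the median log2 difference of all genes by -0.23 for MOE minus VNO and by 0.26 for VNO minus OB, and the members' medians became 1.23 and 0.80. Quantile normalization moved the median of all genes by -0.18 for SM minus CM in MOE.

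The fit with a replicate block gave 14, 22 and 13 members for the tissue comparisons and 0 for every sex and housing comparison, as without it, so the pairing by number, which held for SF with SM and SF with CF in VNO, changed no member call. Averages over groups and interactions were not fitted on only the groups compared. Depth limits the low members: an FPKM of 0.15 stands for 3 fragments of Cyp2a4 in OB.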

Other observations

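Levels of 2 members in VNO varied with the replicate number of the library, which the labels do not tie to a batch. Cyp2a5 was 104 to 141 FPKM in the 4 VNO libraries numbered 2, 87.0 to 104 in those numbered 1 and 58.3 to 91.9 in those numbered 3, so that numbers 1 and 2 met at 104 FPKM. Cyp2f2 was 127 to 145, 97.7 to 122 and 86.9 to 134 FPKM in the same order. In MOE the ranges of Cyp2a5 by number overlapped, with 2296 to 2737, 1779 to 2909 and 1427 to 2569 FPKM. These values were picked after they had been seen and were not tested.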
